A study of Mus musculus with 3 samples.

Results

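The major urinary proteins are small secreted carriers of the lipocalin family, and 10 genes of the family, Mup1, Mup3, Mup7, Mup11, Mup12, Mup16, Mup17, Mup18, Mup20 and Mup21, were followed by symbol among 32285 annotated genes. The other 12 symbols of the family in the table are given beside them. The counts come from liver cells of male C57BL/6 mice aged 9 weeks, profiled by droplet single-cell RNA sequencing of transcript 3' ends (10x Genomics). All 3 libraries lack Ifih1 (Ifih1-/-), the gene of the RNA sensor MDA5, and carry Alb-Cre, a transgene in which an albumin promoter drives Cre recombinase in hepatocytes. They differ in Adar1, the gene of an RNA-editing adenosine deaminase, which is flox/flox, wt/flox or wt/wt, with 1 library each. How many mice gave each library is not stated in the labels. Since each genotype has a single library, replicate error cannot be given, nothing was tested, and every difference is one between libraries.

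Major urinary proteins are made by hepatocytes, secreted into blood, filtered into urine and there carry small volatile pheromones in their barrel-shaped pocket. Male mouse liver makes far more of them than female liver, because the pulsed release of growth hormone in males acts on hepatocytes through the transcription factor STAT5b. Mup20 encodes darcin, a male scent protein that female mice learn to seek out. The genes lie side by side in an array in which many copies arose by recent duplication.

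The 10 genes lie within chr4:60066469-62150863 (mm10), all on the minus strand in the GENCODE M21 annotation and all protein coding. Mup7 (chr4:60066469-60070475), Mup1 (chr4:60498012-60501960), Mup11 (chr4:60658466-60662411), Mup12 (chr4:60737383-60741326), Mup16 (chr4:61515592-61519531), Mup17 (chr4:61591929-61595871) and Mup18 (chr4:61670177-61674136) form a near-identical group. Over the 21 pairs of these 7 genes the coding sequences agreed at 98.3% to 99.8% of aligned positions, with gaps counted as disagreement. Mup20 (chr4:62050234-62054158), Mup3 (chr4:62083476-62087342) and Mup21 (chr4:62147932-62150863) lie at one end of the array and are more divergent. Identity was 87.0% to 94.7% among these 3, and 82.3% to 91.3% between them and the near-identical group. A stretch of the coding sequence is shown for how close the copies are to each other. It is coding positions 127 to 186, counted from 1 at the start codon of Mup1, in exon 2 of the 7 exons of Mup1, and capitals mark bases that differ from Mup1. Mup1, Mup11, Mup12 and Mup18 are the same over these 60 bases, Mup7 and Mup16 differ at 1 base each, and Mup17 at 2.
Mup11: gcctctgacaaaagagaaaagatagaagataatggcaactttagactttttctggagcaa
Mup7: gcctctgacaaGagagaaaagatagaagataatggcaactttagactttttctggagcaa
Mup16: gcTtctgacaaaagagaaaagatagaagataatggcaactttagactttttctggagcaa
Mup17: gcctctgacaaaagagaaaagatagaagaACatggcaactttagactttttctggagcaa
Mup20: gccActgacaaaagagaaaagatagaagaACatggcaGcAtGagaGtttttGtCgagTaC
Mup3: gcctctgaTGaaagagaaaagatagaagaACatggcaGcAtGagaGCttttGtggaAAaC
Mup21: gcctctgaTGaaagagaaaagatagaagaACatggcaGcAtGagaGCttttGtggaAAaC
Mup20 differs from Mup1 at 11 of the 60 bases, and Mup3 and Mup21 at 13.

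Counts in this assay come from the 3' part of the transcript, so the annotated last 500 bases were compared across the family in windows of 90 bases. All windows of Mup3 occurred in no other family gene, as did 91.2% of those of Mup21, 90.3% of Mup20 and 65.2% of Mup17. The share was 31.1% for Mup11, 15.8% for Mup16 and for Mup18, 12.2% for Mup12, 0.487% for Mup7 and 0% for Mup1. The split of counts among the 7 near-identical members is therefore uncertain, and how reads matching several copies were counted is not given in the sources used here. Their sum is given beside each of them. Mup3, Mup20 and Mup21 can be read as single genes.

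Promoter sequences in RefSeq (GRCm38.p6) were matched for Mup7, Mup11, Mup17, Mup18, Mup3 and Mup21. The motif TATATAA, searched on both strands in the 300 bases around each start, occurred in 5 of these 6 and in 3.24% of all 32851 promoters in the table. The palindrome TTCNNNGAA, the core that STAT proteins can bind, occurred in 0 of the 6 and in 8.30% of all promoters, which says only that these letters are not in these windows. The 150 bases before the RefSeq start are shown for a near-identical member and for Mup3 and Mup21, because the groups differed in their levels across libraries. For these genes the RefSeq start lies downstream of the GENCODE M21 start given above, so each stretch ends inside the GENCODE gene. By the GENCODE coordinates TATATAA also lies inside the gene. Which start is used was not tested. Capitals mark TATATAA, and all 3 stretches read along the minus strand.
Mup17, chr4:61595833-61595982: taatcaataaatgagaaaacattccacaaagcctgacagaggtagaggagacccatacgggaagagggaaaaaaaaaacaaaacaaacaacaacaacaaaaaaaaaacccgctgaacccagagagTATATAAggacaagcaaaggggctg
Mup3, chr4:62087318-62087467: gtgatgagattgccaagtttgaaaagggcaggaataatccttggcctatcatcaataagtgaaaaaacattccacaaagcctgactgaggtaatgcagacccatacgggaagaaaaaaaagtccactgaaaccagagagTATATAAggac
Mup21, chr4:62150842-62150991: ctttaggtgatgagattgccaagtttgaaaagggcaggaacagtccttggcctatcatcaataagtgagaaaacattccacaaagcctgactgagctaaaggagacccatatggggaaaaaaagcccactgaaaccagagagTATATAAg
Over 150 bases up to and including TATATAA, Mup11 and Mup17 agreed at 98.7% of aligned positions and Mup3 and Mup21 at 89.4%. Mup17 and Mup3 agreed at 56.3%. Gaps in the alignment count as disagreement, and the A-rich stretch before TATATAA is longer in Mup17 than in Mup3. That value is therefore not the share of matching bases among those that could be paired.

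The deposited table holds 10000 barcodes per library, with 10756790 UMIs (unique molecular identifiers, each standing for 1 captured transcript) in the flox/flox library, 10067929 in wt/flox and 9744380 in wt/wt. After filtering and clustering, 7840, 7360 and 8261 barcodes were called hepatocyte-like in the flox/flox, wt/flox and wt/wt libraries, with medians of 904, 862 and 825 UMIs. All 12 hepatocyte markers were present in each, at summed levels of 81399.7, 95386 and 95647 CPM (counts per 1000000 UMIs of hepatocyte-like barcodes) in flox/flox, wt/flox and wt/wt. Their presence does not by itself identify hepatocytes, since they stood at 41.2% to 82.1% of these levels in other classes of barcodes. Barcodes holding only RNA free in the suspension could also be called hepatocyte-like and were not separated. Per the labels, cells were collected by collagenase perfusion, slow centrifugation and a Percoll gradient, which favour hepatocytes. Pairs of libraries shared 20 to 32 barcode sequences, and doublets were not removed. In hepatocyte-like barcodes Adar had 292, 124 and 81 UMIs in flox/flox, wt/flox and wt/wt. Adar is itself induced by interferon, and a 3' count checks a deletion only if the deleted exons are the ones counted, so these counts do not check the genotype. Of 26 measured type I interferon response genes, 26 were at least 1.5-fold higher in flox/flox than in wt/wt, and 14 in wt/flox than in wt/wt. The shares of all measured genes were 14.4% and 9.95%.

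Mup20 and Mup3 made up most of the family's transcripts in every library, and both were among the most abundant transcripts of the hepatocyte. Together the 10 members took 37533 CPM in flox/flox, 34054 CPM in wt/flox and 20008 CPM in wt/wt, that is 3.75%, 3.41% and 2.00% of all UMIs in hepatocyte-like barcodes. The annotated transcripts are 677 to 984 bases long, and a 3' UMI stands for a transcript whatever its length. Levels can therefore be set side by side for Mup20, Mup3 and the near-identical sum. Levels within the near-identical group depend on how shared reads were split. Mup21 has the transcript of 677 bases, against at least 926 bases in the other members. If its 3' end is annotated too short, some of its UMIs would be missed, which was not tested. Both libraries with a floxed allele thus lay above wt/wt, and their own values lay close together.

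Mup20, darcin, was highest in flox/flox, with 20822 CPM (172094 UMIs), against 11892 CPM (85444 UMIs) in wt/flox and 8662 CPM (67895 UMIs) in wt/wt. It ranked 2 among all genes by UMIs in flox/flox, 7 in wt/flox and 12 in wt/wt. Its share of the 10 members was 55.5% in flox/flox, 34.9% in wt/flox and 43.3% in wt/wt. Mup3, its neighbour, followed another order. Mup3 had 14016 CPM (115840 UMIs) in flox/flox, 15685 CPM (112690 UMIs) in wt/flox and 9088 CPM (71234 UMIs) in wt/wt. The ratio of Mup20 to Mup3 was 1.49 in flox/flox, 0.758 in wt/flox and 0.953 in wt/wt. Mup20 thus outnumbered Mup3 only in the flox/flox library. Mup21, the other divergent member, had far lower counts and the same order as Mup20. Its levels were 376 CPM in flox/flox, 273 CPM in wt/flox and 152 CPM in wt/wt.

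The 7 near-identical members were highest in the wt/flox library, and over all hepatocyte-like barcodes their sum was alike in the other libraries. Their summed level was 2319 CPM in flox/flox, 6205 CPM in wt/flox and 2105 CPM in wt/wt. They made up 6.18% of the 10 members in flox/flox, 18.2% in wt/flox and 10.5% in wt/wt. Mup11 led the group with 1570 CPM (12977 UMIs) in flox/flox, 2953 CPM (21217 UMIs) in wt/flox and 1119 CPM (8774 UMIs) in wt/wt. Mup7 had 309, 1278 and 456 CPM, and Mup17 had 252, 1128 and 255 CPM, in flox/flox, wt/flox and wt/wt. Mup1 had 96.6, 526 and 168 CPM in the same libraries. In each of these 4 genes wt/flox was the highest library by a wide margin. The lowest library was wt/wt for Mup11 and flox/flox for Mup7 and Mup1, and the Mup17 values of flox/flox and wt/wt did not differ beyond counting error.

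The rarest members were likewise highest in wt/flox. Mup12 had 417, 1101 and 485 UMIs, Mup16 had 291, 983 and 291, and Mup18 had 50, 214 and 62, in flox/flox, wt/flox and wt/wt. By CPM, Mup12 had 50.5, 153 and 61.9, Mup16 35.2, 137 and 37.1, and Mup18 6.05, 29.8 and 7.91 in those libraries. As counted, the order of the members by level was Mup20, Mup3, Mup11, Mup21, Mup7, Mup17 in flox/flox, while Mup3 led in wt/flox and in wt/wt. The 12 other family symbols added 122 CPM in flox/flox, 224 CPM in wt/flox and 92.6 CPM in wt/wt. Mup14 led them in every library, with 82.5, 126 and 46.1 CPM in flox/flox, wt/flox and wt/wt. Since Mup14 has no 90-base window of its own, its counts cannot be told apart from those of its near copies.

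**Figure D1:**
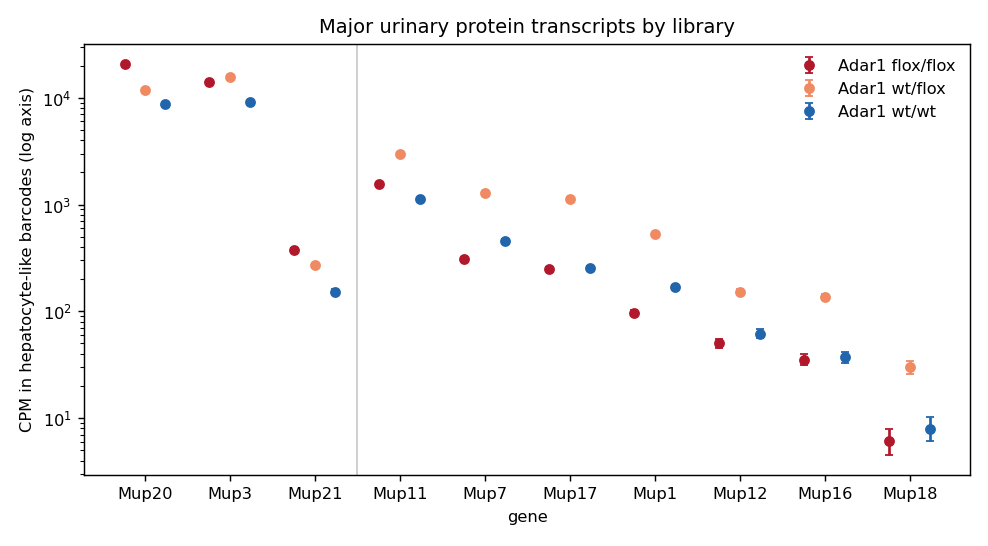
CPM of each member in hepatocyte-like barcodes on a log axis, with flox/flox in red, wt/flox in orange and wt/wt in blue, and bars for 95% exact Poisson intervals that cover counting error only (often smaller than the point). The vertical line parts the 3 divergent members from the 7 near-identical ones, all of which are highest in wt/flox, while Mup20 reaches 20822 CPM in flox/flox.

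Between flox/flox and wt/wt the divergent members were higher, and 6 of the 7 near-identical ones lay within 1.5-fold. The summed level was 1.88-fold that of wt/wt, a log2 ratio of 0.91 (95% interval for counting error 0.90 to 0.92). Mup21 had a log2 ratio of 1.30 (1.21 to 1.40), Mup20 1.27 (1.25 to 1.28) and Mup3 0.62 (0.61 to 0.64), which are the 3 members at least 1.5-fold higher. Mup3 was just under that limit, at 0.58, with median-of-ratios size factors. Of 11363 measured genes, 14.4% were at least 1.5-fold higher in this comparison and 7.43% at least 1.5-fold lower. Mup1 was the 1 member at least 1.5-fold lower, at -0.80 (-0.93 to -0.67). In barcodes of at least 2000 UMIs it lay within 1.5-fold, at -0.29 (-0.88 to 0.34). Mup7 at -0.56 lay just inside that limit and Mup11 at 0.49 just inside the upper one. Mup12 at -0.29, Mup18 at -0.39, Mup16 at -0.08 and Mup17 at -0.02 also lay within 1.5-fold, the last 3 with intervals that include 0. The sum of the 7 was nearly level over all hepatocyte-like barcodes, at 0.14 (0.11 to 0.17), and the 3 divergent members together stood at 0.98. In barcodes of at least 2000 UMIs the sum of the 7 passed 1.5-fold, at 0.62 (0.47 to 0.79). The median over all measured genes was 0.08.

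Between wt/flox and wt/wt every member was higher, and the near-identical ones most. The summed level was 1.70-fold that of wt/wt, a log2 ratio of 0.77 (0.76 to 0.78). In this comparison 9 of 10 members were at least 1.5-fold higher and 0 lower, against 9.95% and 6.99% of all measured genes. The 7 near-identical members ran from 1.31 for Mup12 to 2.15 for Mup17 (2.08 to 2.22), and their sum stood at 1.56 (1.53 to 1.59). Mup21 had 0.84 and Mup3 0.79. Mup20 had the smallest ratio, 0.46 (0.44 to 0.47), and was the 1 member within 1.5-fold. The median over all measured genes was 0.04.

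Between flox/flox and wt/flox the sum was nearly level while its composition differed. The summed level had a log2 ratio of 0.14 (0.13 to 0.15). Mup20 was the 1 member at least 1.5-fold higher, at 0.81 (0.80 to 0.82), against 13.4% of all measured genes. All 7 near-identical members were at least 1.5-fold lower, against 9.73% of all measured genes, from -0.91 for Mup11 to -2.44 for Mup1, and their sum stood at -1.42 (-1.44 to -1.40). Mup21 at 0.46 and Mup3 at -0.16 lay within 1.5-fold. The 3 comparisons share libraries, so their values are not separate evidence.

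**Figure D2:**
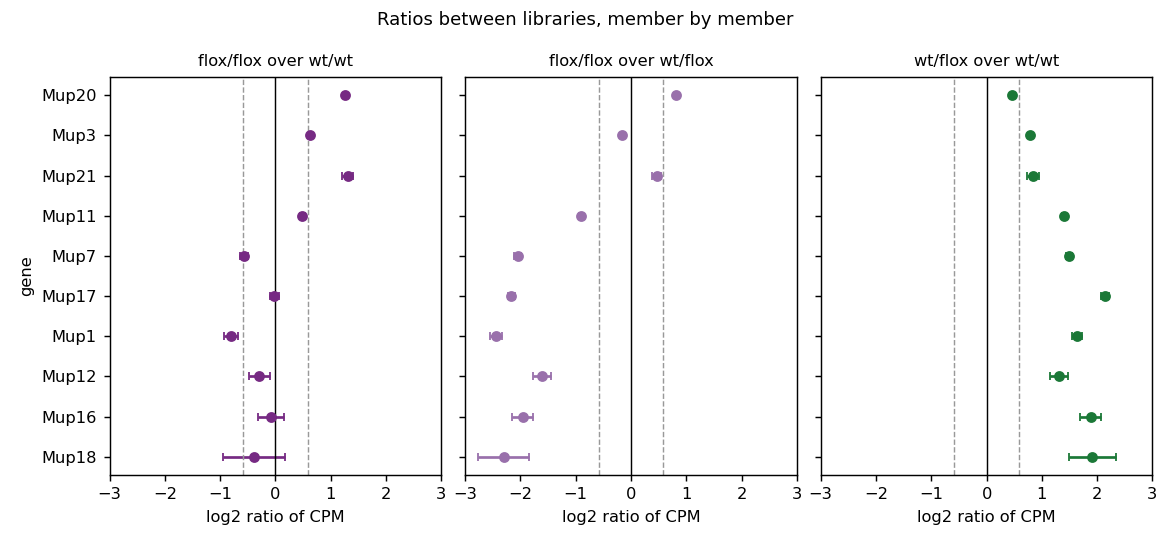
Log2 ratio of CPM for each member in the 3 comparisons, with bars for 95% exact intervals that cover counting error only and dashed lines at 1.5-fold. All 7 near-identical members (Mup11 and below) lie right of the upper line for wt/flox over wt/wt and left of the lower line for flox/flox over wt/flox, while Mup20 stands at 1.27 for flox/flox over wt/wt.

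Most of the abundant secreted plasma proteins listed lay within 1.5-fold. Albumin, the most abundant plasma protein, had 24117.5 CPM in flox/flox, 20893 CPM in wt/flox and 28310.2 CPM in wt/wt, with log2 ratios of -0.23 for flox/flox over wt/wt and -0.44 for wt/flox over wt/wt. In wt/flox over wt/wt, 0 of the 26 listed were at least 1.5-fold higher and 2 lower, against 9.95% and 6.99% of all measured genes. In flox/flox over wt/wt, 1 was higher and 4 lower, against 14.4% and 7.43%. The 1 was Serpina3k, a serine protease inhibitor, at 0.65, and Serpina1e and Serpina1b, members of the alpha-1-antitrypsin family, were lowest at -1.08 and -0.97. These Serpina1 genes are near copies of each other, so their split is uncertain too. Between flox/flox and wt/flox, 0 of the 26 passed 1.5-fold in either direction, against 13.4% higher and 9.73% lower of all measured genes. The 12 hepatocyte markers summed had log2 ratios of -0.23 for flox/flox over wt/wt and 0.00 for wt/flox over wt/wt.

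Every hepatocyte-like barcode held at least 1 member UMI. The share of a barcode's UMIs that came from the 10 members had a median of 3.49% in flox/flox, 3.31% in wt/flox and 1.85% in wt/wt. The range from the 5th to the 95th percentile was 1.67% to 7.01% in flox/flox, 1.88% to 5.26% in wt/flox and 0.900% to 3.66% in wt/wt. The distributions overlapped, with an upper tail that reached furthest in flox/flox. The near-identical group was detected in 80.3% of barcodes in flox/flox, 98.8% in wt/flox and 81.3% in wt/wt. After thinning each barcode to 1000 UMIs, which left out 4931 shallower barcodes in flox/flox, 5044 in wt/flox and 5881 in wt/wt, these shares were 75.9%, 97.8% and 81.5%.

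Mup20 varied between barcodes more than Mup3 did. In the thinned barcodes Mup20 had a median of 17 UMIs in flox/flox, 10 in wt/flox and 7 in wt/wt, and a variance over mean of 12.8, 6.11 and 6.33. For Mup3 the median was 13, 15 and 8 UMIs and the variance over mean 2.95, 2.10 and 2.56 in the same libraries, while albumin had 9.62, 6.19 and 5.84. Across barcodes Spearman's rho of Mup20 with Mup3 was 0.41 in flox/flox, 0.39 in wt/flox and 0.45 in wt/wt, and that of Mup20 with albumin was as high, at 0.51, 0.40 and 0.51. Mup3 with albumin had 0.46, 0.36 and 0.50. Mup20 with Mup11 had rho of -0.03, 0.00 and 0.06. These are descriptions over 2909, 2316 and 2380 barcodes that share a library and its free RNA.

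Hepatocytes differ along the lobule from the portal triad, where blood enters, to the central vein, where it leaves. Barcodes of at least 1000 UMIs were ordered within each library by the ratio of 15 pericentral to 15 periportal genes, none of them a member, and cut into 3 zones of equal size. Summed, the near-identical group was higher toward the central vein in every library. Its pericentral and periportal zones had 3603 and 1101 CPM in flox/flox, 7712 and 4418 CPM in wt/flox, and 2599 and 1484 CPM in wt/wt, log2 ratios of 1.71, 0.80 and 0.81. Mup17 had the largest such ratio in flox/flox and in wt/flox, at 2.44 and 1.25, and Mup11 in wt/wt, at 1.19. Every member of the group was higher in the pericentral zone in flox/flox and in wt/flox. In wt/wt Mup16 was lower there, at -0.31, and Mup7, Mup12 and Mup1 differed little, at 0.21, 0.21 and 0.16. In the periportal zone the group was lower in flox/flox than in wt/wt, and in the pericentral zone it was higher. Mup20 ran the other way, with 15993 CPM in the pericentral and 28594 CPM in the periportal zone of flox/flox, 10347 and 14515 CPM in wt/flox, and 6646 and 11662 CPM in wt/wt. Its log2 ratios were -0.84, -0.49 and -0.81 in flox/flox, wt/flox and wt/wt. Mup3 was nearly flat, at 0.11, 0.07 and -0.15. Mup20 was highest in flox/flox in each zone, and the near-identical group highest in wt/flox in each zone.

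**Figure D3:**
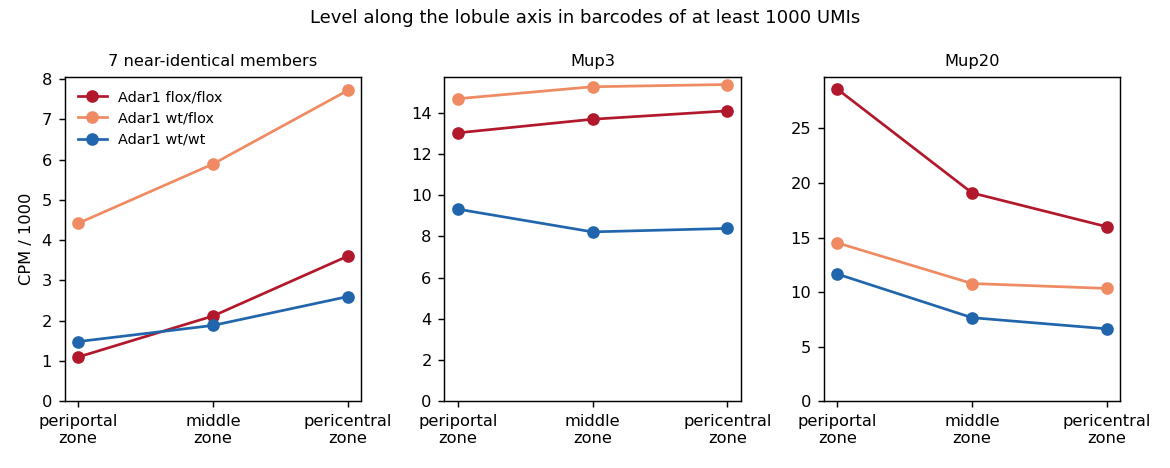
CPM (in units of 1000) in the periportal, middle and pericentral zone of hepatocyte-like barcodes with at least 1000 UMIs, for the 7 near-identical members, Mup3 and Mup20, with flox/flox in red, wt/flox in orange and wt/wt in blue. In all 3 libraries the near-identical sum is highest in the pericentral and Mup20 in the periportal zone, and Mup3 is nearly flat.

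The differences were also looked at inside clusters, since the libraries fill hepatocyte-like clusters unequally. A cluster led by interferon-induced genes held 2265, 282 and 141 barcodes of flox/flox, wt/flox and wt/wt, and a cluster led by Cd9 and Cdh1, with the highest member level, held 1401, 550 and 514. In that cluster the 10 members reached 50786 CPM in flox/flox, 47529 CPM in wt/flox and 34569 CPM in wt/wt. Over the 10 clusters with at least 50 barcodes in each library, the log2 ratio of Mup20 in flox/flox over wt/wt was above 0 in 10, from 0.79 to 1.24. The ratio of the near-identical sum in wt/flox over wt/wt was above 0 in 10, from 0.81 to 1.71, and in flox/flox over wt/flox below 0 in 10, from -1.79 to -0.31. The end nearest 0 was in each case the cluster led by Slc1a2, Cyp2c37 and Glul, genes of hepatocytes next to the central vein. The ratio of the 10 members together in flox/flox over wt/flox had no common sign, with 6 clusters above 0 and 4 below, from -0.04 to 0.10. Inside clusters the flox/flox and wt/flox libraries thus had nearly the same summed level.

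Mitochondrial UMIs, a sign of cell damage, were a median of 7.87% of a barcode's UMIs in flox/flox, 4.17% in wt/flox and 5.01% in wt/wt. In barcodes under 5% mitochondrial UMIs the members summed to 30631 CPM in flox/flox, 31834 CPM in wt/flox and 16874.5 CPM in wt/wt. In barcodes of 5% to 20% they summed to 40867, 37205 and 23504 CPM. Both libraries with a floxed allele lay above wt/wt in each range, while the order between flox/flox and wt/flox turned round below 5%. Barcode depth made less difference up to 2000 UMIs. Barcodes under 1000 UMIs had 37465, 34607 and 20335 CPM in flox/flox, wt/flox and wt/wt, and those of 1000 to under 2000 UMIs had 37243, 33295 and 19998 CPM. The 352, 99 and 110 barcodes of 2000 to under 4000 UMIs had 38968, 32443 and 16166 CPM in these libraries, so the gap to wt/wt was widest there. The part of mitochondrial content in the difference between flox/flox and wt/flox was not tested.

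Member UMIs were also found in classes of barcodes that do not make these proteins. There they can come from free RNA or from doublets with a hepatocyte, and these sources were not told apart. In T or natural killer-like barcodes the 10 members summed to 18068 CPM in flox/flox, 19803 CPM in wt/flox and 10883 CPM in wt/wt, which is 48.1%, 58.2% and 54.4% of the level in hepatocyte-like barcodes of the same library. In endothelial-like barcodes the sums were 18375, 19331 and 10017 CPM. Median depths in T or natural killer-like barcodes were 984, 978.5 and 1003 UMIs in flox/flox, wt/flox and wt/wt. Kupffer-like barcodes, the resident macrophages, had 36.9%, 47.1% and 47.2% of the hepatocyte level in flox/flox, wt/flox and wt/wt. Neutrophil-like barcodes were the highest, at 71.8%, 79.4% and 72.5%. The 12 hepatocyte markers stood at similar shares, 52.2%, 62.3% and 61.5% in T or natural killer-like barcodes. About the same part of albumin was found there, at 45.1%, 56.4% and 57.1%.

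Member UMIs in the other classes carried each library's own composition. In all barcodes of other classes together, Mup20 had 8747 CPM in flox/flox, 6388 CPM in wt/flox and 4260.1 CPM in wt/wt, and the near-identical group had 1113, 3941 and 1143 CPM. The log2 ratios there were 1.04 for Mup20 in flox/flox over wt/wt and 1.79 for the near-identical group in wt/flox over wt/wt, and those in hepatocyte-like barcodes were 1.27 and 1.56. For the summed members in flox/flox over wt/flox the ratio was -0.23 in the other classes and 0.14 in hepatocyte-like barcodes. No free RNA was subtracted, so detection of a member UMI in a barcode is no sign that its cell makes the protein. Hepatocyte-like barcodes were 80.2% of kept barcodes in flox/flox, 74.2% in wt/flox and 83.6% in wt/wt. Conversely, markers of other classes were low in hepatocyte-like barcodes, with the 10 Kupffer markers at a summed 131, 92.6 and 74.5 CPM and the 12 endothelial markers at 33.6, 33.5 and 28.1 CPM in flox/flox, wt/flox and wt/wt. Of either list 0 markers were at 0 in hepatocyte-like barcodes, and their part in the differences was not tested.

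**Figure D4:**
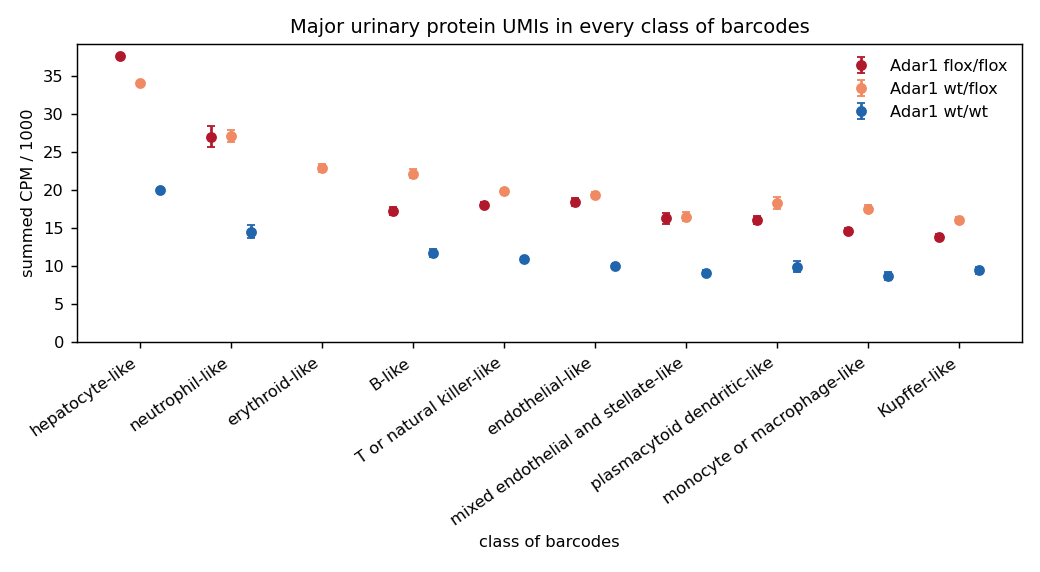
Summed CPM of the 10 members, in units of 1000, in every class with at least 50 barcodes in the library, with flox/flox in red, wt/flox in orange and wt/wt in blue, and bars for 95% exact Poisson intervals that cover counting error only. Hepatocyte-like barcodes are highest, and wt/wt is the lowest library in each class that holds all 3; erythroid-like barcodes reached 50 in wt/flox alone.

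The genes whose pattern was most like the summed members were sought over 30 sums of cluster by library, among 2815 genes with at least 1000 UMIs. They were Selenop, a secreted selenium carrier (Pearson's r 0.92 on log2 of CPM + 1), B2m, the light chain of MHC class I (0.90), Tmem176a (0.88), Ugt2b5, a glucuronosyltransferase (0.87), and Ssr3, a subunit of the translocon-associated complex (0.86). Selenop had 4159 CPM in flox/flox, 3324 CPM in wt/flox and 2398 CPM in wt/wt. B2m had 2405, 1776 and 1205 CPM. The points share 3 libraries and their clusters, so r is a description. For the near-identical group the nearest gene was Mgst1, a membrane glutathione transferase (0.94), with 3477, 4780 and 2851 CPM in flox/flox, wt/flox and wt/wt.

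Growth hormone signalling is known to drive these genes in male liver. Of 14 of its genes measured, 5 were at least 1.5-fold higher and 2 lower in wt/flox than in wt/wt, against 9.95% and 6.99% of all measured genes. Cish, a feedback inhibitor induced by STAT5, had 71 UMIs in flox/flox, 370 in wt/flox and 18 in wt/wt, with a log2 ratio of 4.49 for wt/flox over wt/wt. Socs3, another inhibitor of the same family, had 17, 137 and 13 UMIs (3.52), and Socs2 had 87, 320 and 135 UMIs (1.37). All 3 inhibitors were highest in wt/flox, as the near-identical group was. Whether growth hormone signalling had a part in this was not tested. Onecut1, a liver transcription factor, had 326, 647 and 114 UMIs (2.63). Egfr and Stat5b were lowest in this comparison, at -0.69 and -0.66. The growth hormone receptor gene Ghr had 0.15 and the growth factor gene Igf1 had 0.23.

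In flox/flox over wt/wt the same list had 3 higher and 3 lower, against 14.4% and 7.43% of all measured genes. Cish led with 1.90 and Onecut1 followed with 1.44. The lowest was Bcl6, a repressor that competes with STAT5 at many sites, with 83 UMIs in flox/flox, 224 in wt/flox and 326 in wt/wt (-2.05), and the next was Socs2 at -0.71. In flox/flox over wt/flox, 1 was higher and 6 lower, against 13.4% and 9.73% of all measured genes, with Socs3 at -3.21 and Cish at -2.58. Ghr and Igf1 were within 1.5-fold in all 3 comparisons.

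Male-biased liver genes outside the family were mostly within 1.5-fold. Of 19 measured, 4 were at least 1.5-fold higher and 1 lower in wt/flox than in wt/wt, against 9.95% and 6.99% of all measured genes. The median log2 ratio was 0.33. Ugt2b38 (1.39), for which UMIs were 94 in flox/flox, 221 in wt/flox and 92 in wt/wt, and Cspg5 (1.30), with 11, 18 and 8 UMIs, led, and Serpina1e (-0.64) and Susd4 (-0.35) were lowest. In flox/flox over wt/wt, 1 was higher and 4 lower, against 14.4% and 7.43% of all measured genes. The 1 was Cyp4a12a, a fatty acid hydroxylase, with 1691, 1078 and 854 UMIs in flox/flox, wt/flox and wt/wt (0.91), followed by C6, a complement component, at 0.48. Elovl3, a fatty acid elongase, had 1587, 2890 and 3740 UMIs (-1.31), the reverse of the order of Mup20. In flox/flox over wt/flox, 0 of the 19 were higher and 6 lower, against 13.4% and 9.73% of all measured genes.

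Female-biased liver genes were low in wt/flox. Of 24 listed, 10 had the 20 UMIs needed to be measured. In wt/flox over wt/wt, 9 of these were at least 1.5-fold lower and 0 higher, against 6.99% and 9.95% of all measured genes. The median log2 ratio was -1.17. Several of the 9 rested on few UMIs, down to 1 in wt/flox, and not all had intervals that exclude 0. In flox/flox over wt/flox 9 of the 10 were higher and 0 lower, against 13.4% and 9.73% of all measured genes. In flox/flox over wt/wt 1 was higher and 1 lower, against 14.4% and 7.43%. Nipal1, a magnesium transporter gene, had 150 UMIs in flox/flox, 43 in wt/flox and 179 in wt/wt (-1.93 for wt/flox over wt/wt), and Cyp4a14, a fatty acid hydroxylase, had 296, 94 and 286 (-1.48). The 1 higher in flox/flox was Cyp2a4, a steroid hydroxylase, with 727, 8 and 8 UMIs, a log2 ratio of 6.43 over wt/wt. Cyp2a4 is a near copy of Cyp2a5, so its counts are uncertain in the same way as those of the near-identical members. Cyp17a1 was lowest in flox/flox over wt/wt, at -1.12 with 31, 24 and 64 UMIs. All of the 10 except Cyp2a4 had their lowest count in the wt/flox library, where the near-identical members had their highest level. A shared cause was not tested.

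**Figure D5:**
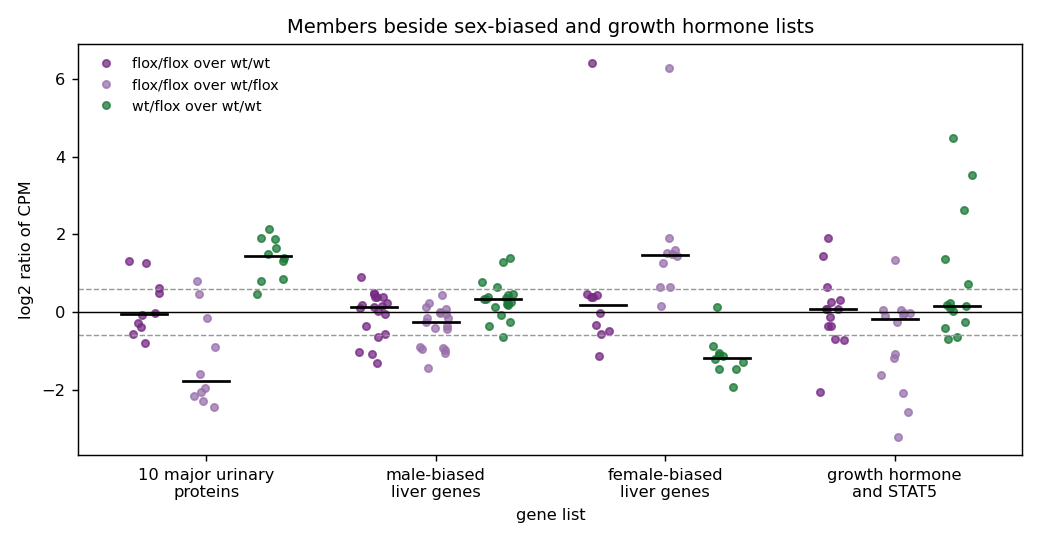
Log2 ratio of CPM for the 10 members, 19 male-biased, 10 female-biased and 14 growth hormone and STAT5 genes, 1 point per gene with the median as a black bar, in flox/flox over wt/wt (dark purple), flox/flox over wt/flox (light purple) and wt/flox over wt/wt (green), with dashed lines at 1.5-fold. For wt/flox over wt/wt all 10 members lie above 0, and 9 of the 10 female-biased genes lie below the lower line.

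Most liver transcription factors lay within 1.5-fold. Of 16 measured, 3 were at least 1.5-fold higher and 2 lower in wt/flox than in wt/wt, against 9.95% and 6.99% of all measured genes. Foxa1 and Foxa2, pioneer factors of liver genes, led in wt/flox over wt/wt at 1.79 and 1.29, with Foxa3 at -1.02 and Cebpb at -0.74 lowest. In flox/flox over wt/wt Foxa1 had 0.59, and Zhx2, a regulator of several liver genes that are silenced after birth, was lowest at -0.53, with Foxa3 next at -0.41. Hnf4a, a main factor of hepatocyte identity, had 0.19 in flox/flox over wt/wt and -0.24 in wt/flox over wt/wt.

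Other lipocalins of the liver had orders of their own. Of 10 measured, 3 were at least 1.5-fold higher and 2 lower in flox/flox than in wt/wt, against 14.4% and 7.43% of all measured genes. In wt/flox over wt/wt, 4 were higher and 1 lower, against 9.95% and 6.99%. Lcn2, an acute-phase siderophore carrier, had 273 UMIs in flox/flox, 63 in wt/flox and 28 in wt/wt (3.21 for flox/flox over wt/wt). Orm2 and Orm3, acute-phase orosomucoids, had 145, 155 and 32 UMIs and 18, 15 and 1 UMIs in these libraries. Ptgds, at -2.25 in flox/flox over wt/wt, and Obp2a, at -1.30, were lowest but rested on at most 18 UMIs in any library. Rbp4, the retinol carrier of plasma, had 20440, 24115 and 22361 UMIs and lay within 1.5-fold in all 3 comparisons.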

How the data were processed

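Liver single-cell RNA sequencing gave 1 library per Adar1 genotype. Per the file headers, the deposited count matrix came from Cell Ranger 6.1.1 and holds whole UMIs for each gene in each barcode. Seurat and mm10 are named in the submitters' processing notes. Barcodes carry their library as a suffix, and 10000 were deposited for each library.

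Barcodes with at least 500 UMIs, 250 genes and at most 40% mitochondrial UMIs were kept (9772 in flox/flox, 9920 in wt/flox, 9878 in wt/wt). They were clustered with scanpy 1.11.5 (Python 3.11.15, scikit-learn 1.9.0, scipy 1.17.1) on 2000 variable genes without Mup symbols, 30 components, 15 neighbours and Leiden resolution 1. A cluster was named X-like from at least 3 markers at 4-fold. Failing that, it was hepatocyte-like if at least 3 hepatocyte markers were each detected in at least 50% of its barcodes. No marker of another class could then be among its 10 leading genes. Scrublet called 0 doublets, is taken as not having worked, and all barcodes were kept. UMIs of hepatocyte-like barcodes were summed per library and given as CPM. Ratios set counts under 3 to 3, and genes with 20 or more UMIs in all were taken as measured. Intervals are 95% exact Poisson or conditional binomial and cover counting error only. They recovered known ratios in simulated Poisson counts. Since the intervals assume such counts, this checks the calculation and not their width for these data. Depth limits members under 100 CPM most. Genes were named by a rule: all members, the 2 highest and 2 lowest of each list in wt/flox over wt/wt and in flox/flox over wt/wt, 10 known regulators, and the 5 genes most like the sum. A gene that this rule names is not reported here. Mgst1 and the values of list genes in other comparisons were added after their values were seen. Members, lists and thresholds were chosen with earlier results of these data known. The alternatives tried changed the scaling, the barcode filter, the clustering, the cell class and the low-count floor.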

Additional observations from a re-analysis of the deposited data

How the results depend on the processing

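Of 13 alternatives, 3 that leave out a group of clusters were chosen after seeing the data. Each summed ratio that moved beyond its counting interval kept its sign, and values follow as log2 ratios. For flox/flox over wt/wt the main value of 0.91 became 0.93 when scaled to UMIs outside Mup symbols, 0.95 outside mitochondrial genes, 0.86 with median-of-ratios size factors, 0.95 and 1.35 in barcodes of at least 1000 and 2000 UMIs, 0.89 at up to 20% mitochondrial UMIs, 0.88 in barcodes with 0 UMIs of other classes' markers and 0.92 after thinning. It was 0.98 without the interferon-led cluster, 0.93 without the mitochondria-led clusters and 0.95 without the cluster led by nuclear transcripts. For flox/flox over wt/flox the main 0.14 became 0.20 outside mitochondrial genes, 0.12 with size factors, 0.18 and 0.22 at 1000 and 2000 UMIs, 0.12 at up to 20% mitochondrial UMIs, 0.10 with 0 UMIs of other markers, 0.16 after thinning, and 0.22, 0.13 and 0.16 without those clusters. For wt/flox over wt/wt the main 0.77 became 0.79 outside Mup symbols, 0.75 outside mitochondrial genes, 0.74 with size factors, 1.13 at 2000 UMIs, 0.78 with 0 UMIs of other markers, and 0.80 and 0.79 without the mitochondria-led and nuclear clusters. Members at least 1.5-fold lower in flox/flox than in wt/wt were 2 in place of 1 with size factors (Mup7 joined at -0.61), at 1000 UMIs (Mup18 at -0.97) and after thinning (Mup18 at -0.81). At 2000 UMIs the 1 was Mup18 at -1.70 (-5.87 to 0.84), and Mup1, at -0.29, was not called. Members at least 1.5-fold higher were 2 in place of 3 with size factors, where Mup3 stood at 0.58, and 4 at 2000 UMIs, where Mup11 joined at 1.05. The near-identical sum in this comparison, 0.14 in the main setting, was 0.62 at 2000 UMIs. The cause was not tested.

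Mup17 in flox/flox over wt/wt, near 0 at -0.02, ran from -0.06 to 0.47 and took the other sign in 8 of 13 alternatives, and Mup16 in 2. Ratios of members and groups past 1.5-fold as reported kept their sign in all 325 cases. These cases reuse the counts of the same 3 libraries and are not separate evidence. No paired analysis was possible because each genotype has 1 library. No difference here can be set against the spread between animals, and genotype, animal, library and dissociation cannot be told apart. Counts of Mup18 and of the rarer family symbols limit precision most. Members in other classes reached 36.9% to 79.4% of the hepatocyte-like level, where free RNA and doublets were not told apart. Levels in hepatocytes were not separated from free RNA.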
